A study of Mus musculus with 4 samples.

Results

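The mouse genome carries most of its core and linker histone genes in clusters, and 64 of the 22554 genes in the table were members of these clusters: the protein-coding genes whose names begin with Hist1h, Hist2h, Hist3h or Hist4h. The Hist1 cluster gave 51 of them (mm10 chr13:21715763-23764406), the Hist2 cluster 10 (chr3:96219865-96270132), Hist3 2 (chr11:58948920-58956830) and Hist4 1 (chr6:136801553-136804415). By product, 5 genes encode the linker histone H1, 17 H2A, 17 H2B, 12 H3 and 13 H4. All 64 had the same position in the GENCODE M21 annotation, 59 are annotated with a single exon, and their exon lengths ran from 312 to 7425 bases with a median of 555.5.

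RNA was measured in type 2 innate lymphoid cells (ILC2s), lung lymphocytes that secrete type 2 cytokines without an antigen receptor, sorted from wild-type BALB/c mice aged 6 weeks. Both groups received IL-2 and IL-7 as survival cytokines and IL-33 as the activating signal. One group was given compound 5D, a small molecule that blocks the Orai calcium channels, and the other the vehicle, with 2 libraries in each group. Nothing in the sample descriptions says whether the libraries came from separate cultures or animals, so p-values measure only the spread between these samples, which may be technical. The culture is described as overnight in the sample descriptions and as a full day in the study's methods, and no dose was given for these libraries.

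Replication-dependent histone genes are switched on together at the entry into S phase, when new DNA has to be packed into nucleosomes. NPAT drives their transcription from the histone locus body. Their mRNAs carry no introns and, as a rule, no poly(A) tail: they end in a short stem-loop that is bound by SLBP, the stem-loop binding protein, and that governs processing, export and the rapid decay at the end of S phase. Because the cDNA kit named in the methods primes on poly(A), mRNA with a tail is what such libraries capture, and how much of each histone mRNA carried one was not measured.

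The stem-loop is the feature that the members share most visibly, so the 6 versions found are shown with 5 flanking bases on either side where the annotated transcript reached that far, the 16 bases of stem and loop in capitals. The coordinates are those of mm10. The gene shown for each version is the one the results below turn on, and Hist1h2ae is added because its RNA is described in full below.
Hist1h2ap (chr13:21833026-21833049, minus strand): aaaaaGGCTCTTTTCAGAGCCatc
Hist1h2ae (chr13:23570663-23570688, minus strand): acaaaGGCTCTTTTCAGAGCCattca
Hist1h4d (chr13:23581945-23581970, plus strand): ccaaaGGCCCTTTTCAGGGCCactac
Hist1h3c (chr13:23745042-23745067, minus strand): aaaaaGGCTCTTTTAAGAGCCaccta
Hist1h4b (chr13:23757361-23757386, plus strand): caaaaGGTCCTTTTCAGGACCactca
Hist1h4i (chr13:22040961-22040986, minus strand): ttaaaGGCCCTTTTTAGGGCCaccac
Hist2h2ac (chr3:96220413-96220438, minus strand): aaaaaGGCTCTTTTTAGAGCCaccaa

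An annotated transcript with the stem-loop was found for 43 of the 64 members (67.2%) and for 11 of 21887 other protein-coding genes (0.0503%). The version of Hist1h2ap and Hist1h2ae was the common one, shared by 26 genes, of which 3 encode H1, 10 H2A, 8 H2B and 5 H3. None of the H4 genes carried it. The 11 H4 genes with a stem-loop used 3 versions of their own, shared by 7, 2 and 2 genes, which are those of Hist1h4d, Hist1h4i and Hist1h4b. The version of Hist1h3c was held by 5 genes, 2 for H2B and 3 for H3, and that of Hist2h2ac by this gene alone.

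The annotated transcript ended under 100 bases after the stem-loop in 22 members and ran 100 bases or more past it in 21, and in that of the other 21 no stem-loop was found. Hist1h2ai, Hist1h2ak and Hist1h2an among these are annotated with only 393 bases. Whether such annotations stop short of a stem-loop was not tested. Levels are given below as normalized CPM, the estimated counts scaled to CPM after upper-quartile normalization, and single genes are ranked against each other only per kilobase of exon. Sums, shares of a sum and the term most counted refer to counts, to which a longer gene adds more. The median level was 6.78 normalized CPM per kb for the 22 short-ended genes, 3.46 for the 21 with no stem-loop found and 1.21 for the 21 that ran past it. The ranges of these 3 classes overlapped (0.123 to 1570, 0.0207 to 65.6 and 0.142 to 93.8 normalized CPM per kb). Each level is divided by the annotated exon length, which includes any stretch past the stem-loop.

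H2A and H2B genes often stand head to head with a common promoter between them. There were 11 such pairs among the members, with 175 to 301 bases between the annotated starts (median 250). The stretches between the starts are shown for the 3 pairs in which the H2A gene stood furthest above its partner, read in the direction of the H2A gene, from RefSeq on GRCm38.p6, on the minus strand. The capitals mark 3 motifs searched on both strands: the octamer ATTTGCAT, the TATA box TATAAA and CCAAT.
Hist1h2br to Hist1h2ap (chr13:21833508-21833742): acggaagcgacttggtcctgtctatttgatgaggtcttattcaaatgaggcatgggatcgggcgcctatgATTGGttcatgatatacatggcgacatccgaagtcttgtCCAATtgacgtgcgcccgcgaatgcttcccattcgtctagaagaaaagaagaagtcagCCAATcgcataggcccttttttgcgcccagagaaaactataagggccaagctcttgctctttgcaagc
Hist1h2bg to Hist1h2ae (chr13:23571221-23571395): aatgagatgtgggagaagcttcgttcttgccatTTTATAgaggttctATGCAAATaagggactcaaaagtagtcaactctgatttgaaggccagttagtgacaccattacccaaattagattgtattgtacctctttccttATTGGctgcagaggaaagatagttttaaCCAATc
Hist2h2be to Hist2h2ac (chr3:96220881-96221118): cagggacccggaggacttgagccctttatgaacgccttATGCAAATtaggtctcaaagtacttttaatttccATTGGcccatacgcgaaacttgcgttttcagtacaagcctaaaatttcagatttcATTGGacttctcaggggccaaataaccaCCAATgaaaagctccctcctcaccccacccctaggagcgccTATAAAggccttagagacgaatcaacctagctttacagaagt

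Of the 3 stretches, those of Hist1h2ae and Hist2h2ac each held 1 octamer and 1 TATA box, and that of Hist1h2ap held neither. The number of CCAAT motifs was 3, 2 and 3 in the order shown. Across the 59 members with a RefSeq promoter window of 300 bases (250 before the start and 50 after it), the octamer was present in 11 (18.6%), 6 of them H2A and 5 H2B genes, against 1.74% of all 32851 promoters. TATAAA was present in 33 (55.9% against 13.6%). CCAAT was present in 50 (84.7% against 37.4%), which took in every H1, H2A, H2B and H3 window but only 3 of the 12 H4 windows. Where 2 members share a stretch, or have windows with the same bases, as Hist1h2bq and Hist1h2br do, the same motif is counted for both.

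The libraries held 20096555 to 28697265 estimated counts, and the members took 0.119% and 0.133% of the vehicle libraries and 0.127% and 0.117% of the 5D libraries. The 12 ILC2 markers chosen, among them Gata3, Il1rl1, Il5 and Il7r, were all present, with a summed level of 11433 to 12368 normalized CPM. Markers of other cells were low: the summed levels were 4.65 to 8.48 for T cells (Cd4 at 0 throughout), 0.14 to 0.25 for B cells, 0.405 to 1.94 for NK cells and ILC1s, and 0.175 to 2.8 for myeloid cells. The epithelial and stromal list summed to 43.5 to 49.9, nearly all from Epcam and Pecam1, with Scgb1a1 at 0. The table held 5 of the 6 T cell markers chosen, 1 of 4 for B cells (Cd79a) and 4 of 5 for NK cells and ILC1s. It held 4 of 6 for myeloid cells and 5 of 6 for epithelium and stroma.

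A few genes held most of the histone counts in these libraries. Averaged over the 4 libraries, 8 members lay over 10 normalized CPM, 39 between 1 and 10, and 17 under 1, with a median of 2.09. Hist1h2ap alone gave 61.1% of the members' sum, and the 5 most counted genes 84.9%. It has 13 genes of near-identical sequence (95% or more over at least 150 bases), and how reads were divided among the copies was not tested. Of the 64 members 57 have such a near-identical gene, and 23 overlap exons of another annotated gene. For the 64 members 89.5% of the deposited values were not whole numbers, against 45.6% over all 17650 genes tested.

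**Figure D1:**
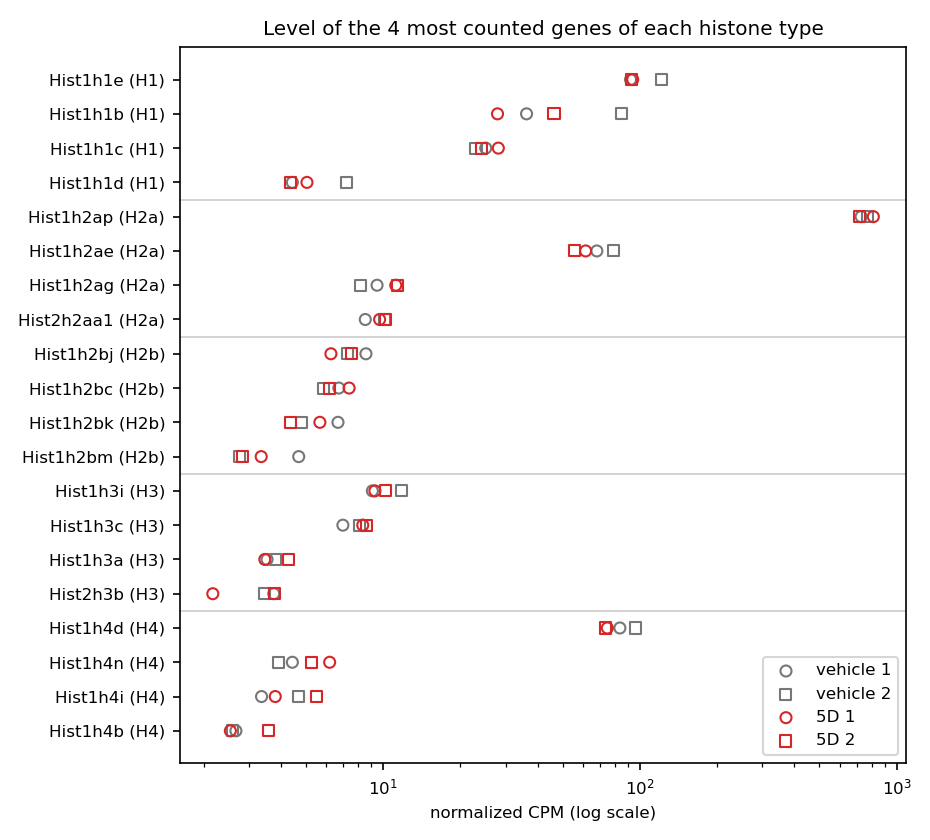
Normalized CPM (log scale) of the 4 most counted genes of each histone type in the 4 libraries, with grey symbols for vehicle and red for 5D, circles for replicate 1 and squares for replicate 2. Hist1h2ap lies at 720 to 812 in every library, and of the H2A, H3 and H4 genes shown only Hist1h2ae, Hist1h2ag, Hist1h3c, Hist1h4d and Hist1h4n have red and grey symbols that do not interleave.

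The comparison of 5D with vehicle asked whether blocking Orai channels in activated ILC2s altered the supply of histone mRNA. No histone cluster gene rose or fell past an adjusted p of 0.05 (quasi-likelihood test of edgeR, Benjamini-Hochberg adjusted across the 17650 genes tested). The smallest adjusted p was 0.197, for Hist2h2ac. The background was low as well, with 17 genes or 0.0963% of all genes called. At an unadjusted p under 0.05 there were 5 members, 4 lower and 1 higher (8.06% of the 62 tested), where 7.34% of all genes passed (3.84% lower and 3.50% higher). DESeq2 gave 4 members and limma-voom 5 at that level. The share of all genes passing in these tests is not given here, so those counts cannot be set against a background. Neither test gave an adjusted call among the members. The higher member, Hist1h2ao, had 0 counts in both vehicle libraries, so it met the filter for testing through its 5D counts alone. Without vehicle replicate 1, which leaves a lone vehicle library, 6 members were called (Hist1h1b, Hist1h1e, Hist1h2ae, Hist1h4d and Hist2h2ac lower, Hist1h3h higher). In that fit the share called was 9.68% of the members and 1.04% of all genes, against 0.0963% with all 4 libraries. Leaving out any 1 of the other libraries gave 0 members, where 0.147% to 0.448% of all genes were called. The 2 members left untested were Hist2h2aa2, with 2, 2, 2 and 0 counts in the vehicle 1, vehicle 2, 5D 1 and 5D 2 libraries, and Hist2h2ab, with 0, 0, 1 and 0.

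Over the 62 tested genes 33 had a higher and 29 a lower mean with 5D, and the median log2 fold change was 0.04 (−0.0016 over all genes). It was −0.06 with limma-voom. The groups did not overlap in 21 members (33.9%, 14 higher and 7 lower with 5D), against 37.6% of all genes. These shares lay near or below the background. The standard error of the log2 fold change ran from 0.055 to 1.84 with a median of 0.37, where the median over all genes was 0.19, so for many members a change of the size of that error was not detectable at this depth. In bulk RNA, fewer cells in S phase and less histone RNA per cell cannot be told apart.

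**Figure D2:**
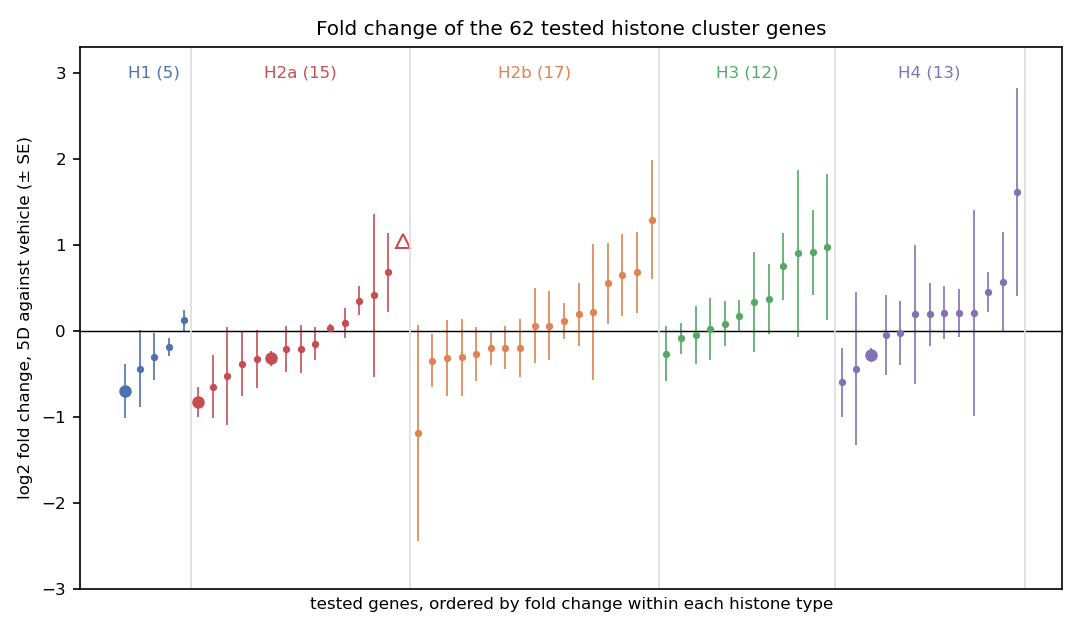
Log2 fold change of 5D against vehicle (± SE) for the 62 tested genes, ordered within each histone type. Large points have an unadjusted p under 0.05, and the open triangle is Hist1h2ao at its lower bound (2.06-fold), since it had 0 counts in both vehicle libraries. Most bars cross 0, and the lowest value among the larger points is −0.83, for Hist2h2ac.

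The linker histones H1 bind the DNA between nucleosomes and compact the fibre. Their summed level was 159 and 238 normalized CPM with vehicle and 156 and 168 with 5D. The means were 198 ± 55.6 and 162 ± 8.5 (SD, n = 2 each), a log2 ratio of −0.29, and the groups overlapped. The ratio was 0.03 without vehicle replicate 2 and −0.55 without vehicle replicate 1. With groups of 2 an exact permutation test cannot go below p = 0.333, so none is given for any sum. The median log2 fold change of the 5 genes was −0.30, with 1 higher and 4 lower, and 0.03 when vehicle replicate 2 was left out.

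Hist1h1b, which encodes histone H1.5, was the H1 gene with the lowest p (chr13:21779883-21780625, minus strand, 743 bases of exon, no near-identical gene). It had 841 and 1693 counts with vehicle and 756 and 1324 with 5D. These are 36.2 and 84.6 normalized CPM against 27.9 and 46.3. The groups overlapped, and within each group replicate 2 was the higher. The log2 fold change was −0.70 (SE 0.31; adjusted p = 0.662 by edgeR, Benjamini-Hochberg). Without vehicle replicate 2 it was 0.03, and without vehicle replicate 1 −1.19, where it was called, so the value rests on which vehicle library is read.

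Hist1h1e, which encodes H1.4, was the most counted H1 gene at 92.0 and 121 normalized CPM in vehicle and 93.8 and 92.7 with 5D. Both 5D libraries sat beside vehicle 1, and the log2 fold change was −0.19 (SE 0.10). Hist1h1c (H1.2) lay at 25.1 and 23.0 against 28.1 and 24.1, and Hist1h1d (H1.3) at 4.43 and 7.2 against 5.05 and 4.37, both overlapping. Hist1h1a (H1.1) had 31 and 45 counts in vehicle and 45 and 28 with 5D. Vehicle 2 held the highest normalized level of Hist1h1b, Hist1h1e, Hist1h1d and Hist1h1a, and the sum of H1 without Hist1h1b was 123 and 153 against 129 and 122.

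H2A pairs with H2B into dimers on the outside of the nucleosome core. The summed H2A level was 851 and 910 normalized CPM in vehicle and 924 and 830 with 5D (881 ± 41.4 and 877 ± 66.4, SD, n = 2 each; log2 ratio −0.01). This sum is mostly Hist1h2ap (chr13:21833026-21833507, minus strand), at 728 and 770 against 812 and 720 normalized CPM, with the 2 5D libraries on either side of both vehicle libraries. Its log2 fold change was 0.03, and its SE of 0.055 was the smallest of the members. With Hist1h2ap taken out, the H2A sum was 123 and 140 against 112 and 110, lower in both 5D libraries (131 ± 11.8 and 111 ± 1.59; log2 ratio −0.25, which became −0.15 without vehicle replicate 2 and −0.34 without vehicle replicate 1).

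Hist1h2ae (chr13:23570517-23571220, minus strand) had 1580 and 1579 counts in vehicle and 1669 and 1594 with 5D, or 68.0 and 78.9 normalized CPM against 61.5 and 55.7. Both 5D libraries lay under both vehicle libraries. The log2 fold change was −0.32 (SE 0.09; adjusted p = 0.485 by edgeR, Benjamini-Hochberg), and it kept its sign with each library left out, between −0.43 and −0.22. Without vehicle replicate 1 it was called (adjusted p = 0.00982 by edgeR, Benjamini-Hochberg), and over the other settings with all 4 libraries the adjusted p ran from 0.192 to 0.557. The miRNA gene Gm44394 is annotated inside its exon, and 12 genes are near-identical to it.

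Hist2h2ac (chr3:96220361-96220880, minus strand), the gene with a stem-loop version of its own, showed the lowest p of all members. It had 267 and 237 counts with vehicle and 180 and 185 with 5D. As levels these are 11.5 and 11.8 normalized CPM against 6.63 and 6.47, with each pair of replicates closer to each other than to the other group. The log2 fold change was −0.83 (SE 0.17; adjusted p = 0.197 by edgeR, Benjamini-Hochberg), and it lay between −0.86 and −0.81 with each library left out. Its adjusted p ran from 0.0902 to 0.226 over the other settings with all 4 libraries, and no such setting took it past the threshold. Without vehicle replicate 1 it was called (adjusted p = 0.0432 by edgeR, Benjamini-Hochberg). Of the 7 genes near-identical to it 2 are members, Hist2h2aa1 and the untested Hist2h2aa2, and how reads were divided among these copies was not tested.

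The other H2A genes moved less or held few counts. Hist1h2ag lay at 9.47 and 8.14 normalized CPM in vehicle and 11.2 and 11.4 with 5D (log2 fold change 0.35, SE 0.17), and Hist2h2aa1 at 8.52 and 10.1 against 9.69 and 10.2. Hist1h2ag was higher in both 5D libraries, and Hist2h2aa1 overlapped. Hist1h2ao was the member higher at an unadjusted p under 0.05, with 0 and 0 counts in vehicle and 8 and 8 with 5D. It met the filter for testing through its 5D counts alone, so its p-value is no support for a rise. Set against a floor of 3 counts per vehicle library, its 5D mean is 2.06-fold higher (adjusted p = 0.532 by edgeR, Benjamini-Hochberg). That value leaves out the sampling error of 8 counts, so it is no strict minimum. It has 11 near-identical genes and overlaps Gm19658, and the part of shared reads in its counts was not tested. Over the 15 tested H2A genes 6 were higher and 9 lower, with a median of −0.21, which became 0.05 without vehicle replicate 2.

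**Figure D3:**
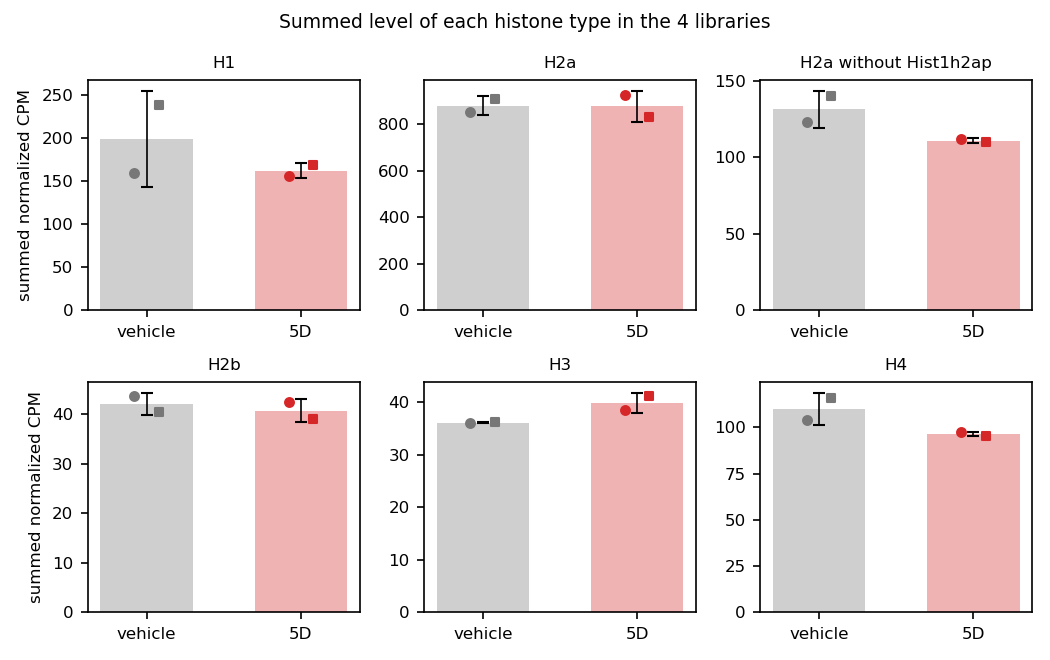
Summed normalized CPM of each histone type in vehicle (grey) and 5D (red) cultures: bars are means from 0, error bars the SD of 2 libraries, and points the libraries (circle replicate 1, square replicate 2). H1, H2A and H2B overlap between the groups, H3 is higher with 5D in both libraries, and H4 and H2A without Hist1h2ap are lower in both.

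H2B was summed to 43.6 and 40.5 normalized CPM in vehicle and 42.4 and 39.1 with 5D (42.0 ± 2.22 and 40.8 ± 2.34, SD, n = 2 each; log2 ratio −0.04), with overlap. None of the 17 genes had an unadjusted p under 0.05, 9 were higher and 8 lower, and the median was 0.06, or −0.01 with limma-voom. The most counted were Hist1h2bj at 8.57 and 7.25 against 6.26 and 7.52, Hist1h2bc at 6.72 and 5.85 against 7.37 and 6.19, Hist1h2bk at 6.67 and 4.8 against 5.67 and 4.37, and Hist1h2bm at 4.69 and 2.75 against 3.35 and 2.83. All 4 overlapped between the groups. Hist1h2bc, whose annotated span is far longer than its exons, had no stem-loop in its annotated transcript.

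H3, which forms a tetramer with H4 at the centre of the nucleosome, was the type whose sum was higher with 5D in both libraries: 36.0 and 36.1 normalized CPM in vehicle against 38.4 and 41.1. The means were 36.1 ± 0.0951 and 39.8 ± 1.93 (SD, n = 2 each), a log2 ratio of 0.14, or 0.09 without 5D replicate 2. The median log2 fold change of the 12 genes was 0.25, with 9 higher and 3 lower, and 0.13 with limma-voom. None passed an unadjusted p of 0.05. Hist1h3i was the most counted at 9.08 and 11.8 against 9.29 and 10.2. Hist1h3c, at 6.97 and 8.10 against 8.33 and 8.64, was the one of the 4 most counted H3 genes in which both 5D libraries stood above vehicle (log2 fold change 0.17, SE 0.19). Hist1h3a (3.53 and 3.80 against 3.46 and 4.27) and Hist2h3b (3.75 and 3.45 against 2.17 and 3.78) overlapped.

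Hist1h3h was chosen after its values were seen, since it was called without vehicle replicate 1. It had 65 and 13 counts in vehicle and 90 and 93 with 5D, with vehicle 2 far under the other 3 libraries. Its log2 fold change was 0.91 (SE 0.49; adjusted p = 0.752 by edgeR, Benjamini-Hochberg).

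H4 summed to 104 and 116 normalized CPM in vehicle and 97.4 and 95.6 with 5D (110 ± 8.51 and 96.5 ± 1.25, SD, n = 2 each; log2 ratio −0.19), lower in both 5D libraries. The ratio was −0.11 without vehicle replicate 2 and −0.26 without vehicle replicate 1. The median over the 13 genes had the opposite sign, 0.19, with 8 higher and 5 lower. The sum was mostly Hist1h4d (chr13:23581598-23582735, plus strand), an H4 gene whose annotated transcript runs 770 bases past the stem-loop and that has no near-identical gene. It had 1942 and 1929 counts in vehicle and 2028 and 2105 with 5D, or 83.6 and 96.4 normalized CPM against 74.7 and 73.6. Both values with 5D were under those with vehicle, and the log2 fold change was −0.28 (SE 0.08; adjusted p = 0.501 by edgeR, Benjamini-Hochberg). It stayed between −0.38 and −0.18 with each library left out, and was called without vehicle replicate 1 (adjusted p = 0.0152 by edgeR, Benjamini-Hochberg). Over the other settings with all 4 libraries the adjusted p ran from 0.242 to 0.589.

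The next H4 genes were lower in level, also per kb (11.5 normalized CPM per kb for Hist1h4n against 72.1 for Hist1h4d). Hist1h4n lay at 4.43 and 3.90 normalized CPM in vehicle and 6.19 and 5.25 with 5D, higher in both 5D libraries (log2 fold change 0.45, SE 0.23). Hist1h4i was at 3.36 and 4.70 against 3.80 and 5.49, and Hist1h4b at 2.67 and 2.6 against 2.54 and 3.57. Both of these overlapped. The remaining 9 H4 genes averaged 0.251 to 2.07 normalized CPM.

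The members together summed to 1194 and 1340 normalized CPM in vehicle and 1258 and 1174 with 5D (1267 ± 103 and 1216 ± 59.5, SD, n = 2 each; log2 ratio −0.06), with overlap. Without Hist1h2ap the sums were 466 and 570 against 446 and 454, lower in both 5D libraries (518 ± 73.8 and 450 ± 5.25; log2 ratio −0.20). This ratio rests on vehicle replicate 2: it was −0.05 without that library and −0.34 without vehicle replicate 1. That remainder is led by Hist1h1e, Hist1h4d, Hist1h2ae and Hist1h1b. Among the 8 members over 10 normalized CPM, 5 were lower with 5D, where 49.6% of all genes tested were higher. Without vehicle replicate 2, Hist1h1b, Hist1h1e and Hist1h3i turned higher (log2 fold changes 0.03, 0.02 and 0.1). Hist1h2ae and Hist1h4d stayed lower in that fit (−0.22 and −0.18).

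Within the 11 head-to-head pairs, the H2A gene had the higher level per kb in 9. Hist1h2ap stood 2020-fold above Hist1h2br (1570 against 0.777 normalized CPM per kb), across 235 bases. Hist1h2ae stood 20.9-fold above Hist1h2bg (93.8 against 4.49), and Hist2h2ac 13.9-fold above Hist2h2be (17.5 against 1.26). The exceptions were Hist1h2ac, at 0.0251 of Hist1h2bc (0.142 against 5.65), and Hist1h2ah, at 0.248 of Hist1h2bk (2.80 against 11.3). So genes that share a start region differed widely in the counts assigned to them. The promoter windows of Hist1h2bq and Hist1h2br are the same, base for base. Hist1h2ao, the partner of Hist1h2bq, stood at 0.299 normalized CPM per kb, against 1570 for Hist1h2ap. Hist1h2ap has 13 near-identical genes, and how reads were divided among the copies was not tested. The levels per kb also rest on unlike annotated exons, 482 bases for Hist1h2ap and 2212 for Hist1h2br.

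**Figure D4:**
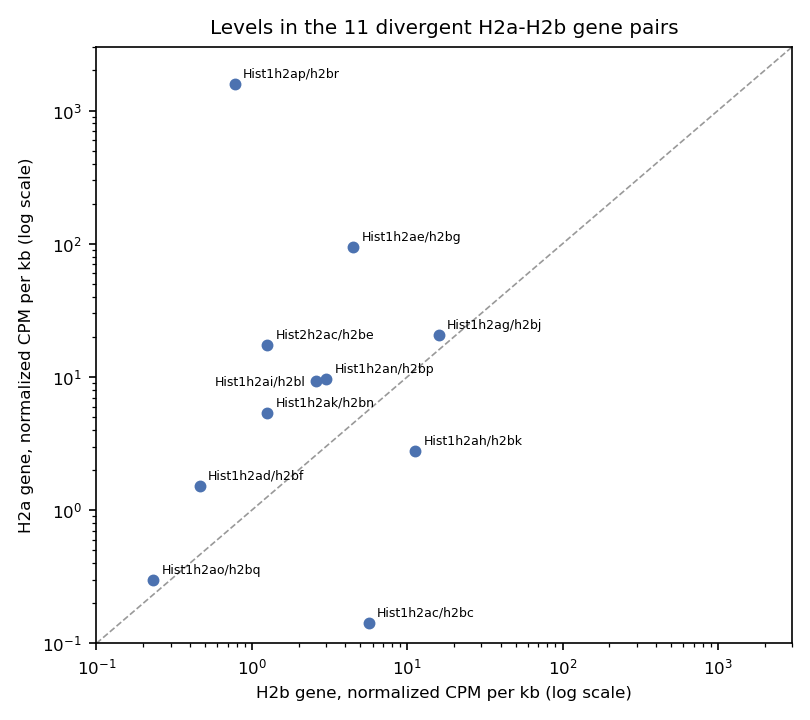
Level of the H2A gene against that of the H2B gene (normalized CPM per kb, mean of 4 libraries, log scales) in the 11 head-to-head pairs, with the dashed line at equal levels. Of the 11 points 9 lie above the line, and Hist1h2ap with Hist1h2br is 2020-fold above it.

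No partner in the 11 pairs was called after adjustment. For Hist1h2ae and Hist1h2bg the log2 fold changes were −0.32 and −0.35, and for Hist2h2ac and Hist2h2be −0.83 and −0.20. Hist2h2be had 74 and 78 counts in vehicle and 109 and 61 with 5D, overlapping, and with an SE of 0.34 a fall like that of Hist2h2ac could not be told from none in its partner. By motif, the 11 tested genes with an octamer in the promoter window had 9 lower and a median log2 fold change of −0.27, and the 46 tested genes without one had 19 lower and a median of 0.08. For TATAAA, 17 of 32 genes with it were lower and 11 of 25 without it (medians −0.12 and 0.03). For CCAAT, 25 of 48 with it were lower and 3 of 9 without it (medians −0.05 and 0.21). The octamer genes all encode H2A or H2B, so that split also follows histone type. Some of them share a stretch, and the splits were made with the values known, so they are descriptions with no test.

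The factors that make and handle histone mRNA did not change past the adjusted threshold. Of 26 regulators of histone supply tested, 13 were higher and 13 lower, the median was −0.003, and none was called after adjustment. Slbp, which binds the stem-loop, lay at 358 and 377 normalized CPM in vehicle and 376 and 391 with 5D. Npat, the coactivator of the histone locus body, lay at 46.5 and 44.5 against 46.1 and 41.7. At an unadjusted p under 0.05 there was 1 of the 26, where 7.34% of all genes passed. This was Hinfp, the zinc-finger factor that binds H4 promoters. It lay at 24.4 and 29.0 in vehicle against 19.2 and 20.7 with 5D, lower in both (log2 fold change −0.42, SE 0.13; adjusted p = 0.52 by edgeR, Benjamini-Hochberg).

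Replication-independent histone genes are transcribed outside S phase as well and carry poly(A) tails. The 3 most counted are given here. H2afz lay at 1740 and 1750 normalized CPM in vehicle and 1630 and 1740 with 5D, H3f3b at 974 and 985 against 986 and 1010, and H3f3a at 717 and 726 against 678 and 734. Their log2 fold changes were −0.05, 0.03 and −0.03, each with an SE of 0.05 or less. Of the 11 tested, 7 were higher and 4 lower, with a median of 0.03. H2afx, which has both a stem-loop and a poly(A) form, was at 166 and 166 against 182 and 184, higher in both 5D libraries (log2 fold change 0.14, SE 0.05; adjusted p = 0.579 by edgeR, Benjamini-Hochberg).

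The 24 histone chaperones tested, which carry new histones to DNA, gave 17 higher and 7 lower, a median of 0.04 and none with an unadjusted p under 0.05. Genes of S phase summed to 7197 and 6989 normalized CPM in vehicle and 7356 and 7299 with 5D. Of the 29, 22 were higher with 5D, with a median of 0.03 and fold changes between −0.07 and 0.17 on the log2 scale, and none was called after adjustment. Uhrf1, which couples DNA methylation to replication, was at 338 and 320 against 372 and 367 (log2 fold change 0.17, SE 0.05; adjusted p = 0.478 by edgeR, Benjamini-Hochberg).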

How the data were processed

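Lung ILC2s were cultured with vehicle or 5D, 2 libraries per group. Per the labels and the study's methods, the authors made cDNA with a low-input kit (the RNA input is given as 10 ng in the labels, a larger amount than in the methods), sequenced on an Illumina sequencer, and quantified in Partek against mm10 and GENCODE M21. The submitters' processing notes name CASAVA 1.8.2 and STAR 2.6.1. The values deposited by the authors are estimated counts of each gene, not normalized. They were rounded to whole numbers here, since the tests planned need counts.

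Upper-quartile normalization was applied. A gene was tested if its normalized counts averaged 1 or more and summed to 10 or more over the libraries (17650 tested, 4904 left out). edgeR 4.0.16 (R 4.3.3) fitted the quasi-likelihood model with Benjamini-Hochberg adjustment, at 0.05, and was tested on simulated data. The common biological coefficient of variation was 8.51%. Replicates differed by more than sampling noise (chi-square per gene 6.1 and 6.66). Alternatives were TMM, DESeq2 1.42.0 size factors and Wald test, limma 3.58.1 with voom, no filter, filterByExpr, unrounded values, GC and length offsets, the replicate block, and each library left out. After seeing the data, counts of calls with a library left out and the sums without Hist1h2ap and with each library left out were added.

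Stem-loops were searched in the GENCODE M21 transcripts, near-identical genes were found with BLAST 2.17.0, and promoters came from RefSeq. Levels per kb divide by exon length.

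The members and gene lists were chosen with earlier results of these data known. Genes named are members with an unadjusted p under 0.05, the 4 most counted of each type, list genes with an unadjusted p under 0.05, and Slbp, Npat and the 3 most counted replication-independent histone genes; markers are named only by their sums, and other names are given where a pair or a count turns on them. Hist1h1t, Hist1h2aa and Hist1h2ba were not analysed here.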

Additional observations from a re-analysis of the deposited data

How the results depend on the processing

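The count of 0 adjusted calls held under the other settings tried with all 4 libraries, apart from those with a replicate block. The replicate numbers only name the libraries (the correlation of same-numbered deviations was 0.00641 over 12331 genes). With the replicate block 1 member was called, with or without GC and length offsets: Hist1h1b, at a log2 fold change of −0.64 (adjusted p = 0.0243 by edgeR), where 0.232% of all genes were called (0.198% with the offsets). With each library left out, where a lone library is assumed to vary like the other group, there were 0 to 6 adjusted calls among the members (0.147% to 1.04% of all genes) and 4 to 12 at an unadjusted p (5.84% to 10.8%). The highest counts came without vehicle replicate 1, where Hist1h1b, Hist1h1e, Hist1h2ae, Hist1h4d and Hist2h2ac were called lower and Hist1h3h higher. The members' median was −0.06 with limma-voom and −0.054 to 0.05 with a library left out. The log2 ratio of the sums was −0.202 without Hist1h2ap, and then −0.34 to −0.05 with a library left out.

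Medians with a library left out ran from −0.005 to 0.02 for regulators (0.007 with the replicate block and GC and length offsets), −0.02 to 0.042 for replication-independent histones, 0.016 to 0.032 for chaperones and 0.022 to 0.053 for S phase genes. Log2 fold changes of these genes turned sign with some library left out: Hist1h1b −1.192 to 0.033, Hist1h1c −0.004 to 0.221, Hist1h1d −0.615 to 0.084, Hist1h1e −0.376 to 0.017, Hist1h2ap −0.061 to 0.114, Hist1h2bc −0.027 to 0.227, Hist1h2bk −0.413 to 0.062, Hist1h2bm −0.604 to 0.166, Hist1h3a −0.082 to 0.216, Hist1h3i −0.278 to 0.1, Hist1h4b −0.053 to 0.433, Hist1h4i −0.084 to 0.465, Hist2h2aa1 −0.033 to 0.218, Hist2h3b −0.728 to 0.065, H3f3a −0.093 to 0.021 and Npat −0.131 to 0.017. The causes were not tested. Sums have no value under another test, the block or no filter. Most members hold few counts, and near-identical copies make the division of reads between them uncertain.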

Other observations

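The histone clusters also hold genes annotated as pseudogenes, which the choice of members left out. Hist1h2al, annotated as a processed pseudogene, had 94 and 102 counts with vehicle and 110 and 140 with 5D, or 4.05 and 5.10 normalized CPM against 4.05 and 4.90. Its log2 fold change was −0.03 (SE 0.25). Hist1h2aj, annotated as an unprocessed pseudogene, had 0, 1, 7 and 0 counts.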
